A study of Mus musculus with 6 samples.

Results

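Tendon and bone cells arise from mesenchyme that lays down collagen matrix, and a small set of genes is known to mark the steps of these lineages. Scx, Mkx and Tnmd mark tendon, Runx2, Spp1 and Mgp are known from bone and mineralizing tissue, Lrrc15 and Lrrc17 encode leucine-rich repeat proteins with roles in mesenchymal and bone cells, and Osr2 acts in the developing skeleton. These 9 genes, of 18301 in the deposited table, were selected on measured RPKM values, because Tnmd, Spp1, Lrrc15 and Lrrc17 were higher when the CDP-ethanolamine pathway was inhibited. The values of shEtnk1/2, shPcyt2 and Etn-deprived against shLuc therefore chose them, and those differences are given as a description with no test. All 9 had a mean of at least 1 RPKM (reads per kilobase of gene, scaled to library size) over the 6 libraries, the level required for testing, as did 11939 genes in all.

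RNA came from mouse embryonic fibroblasts of the strain CBA/CaJ X C57BL/6J on day 2 of reprogramming towards pluripotency in iCD1, a chemically defined medium. All cells were transfected with a short hairpin RNA (shRNA). The 5 groups were shLuc in iCD1 (2 libraries), with an shRNA against luciferase, and 1 library each of shEtnk1/2, shPcyt2 and shPebp1 in iCD1 and of shLuc in iCD1 lacking ethanolamine, here called Etn-deprived. The study asked how the CDP-ethanolamine pathway, which makes the phospholipid phosphatidylethanolamine, bears on the transition of these mesenchymal cells to an epithelial state, and whether ethanolamine acts through Pebp1. Etnk1 and Etnk2 encode the kinases of this pathway and Pcyt2 its next enzyme, and Pebp1 encodes a protein that binds the phospholipid. The labels give neither the number of cultures behind a library nor the shRNA sequences, and nothing in them says that the shLuc libraries were separate cultures, so p-values measure only the spread between these samples.

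Between 18467583 and 20020465 reads lay in genes of each library. Etnk1 was at 12.5 RPKM in shEtnk1/2 against 21.0 and 21.4 in shLuc (limma adjusted p = 0.00401). Pcyt2 was at 29.9 in shPcyt2 against 42.0 and 40.0, which missed the threshold (limma adjusted p = 0.16). Pebp1 was at 99.6 RPKM in shPebp1 against 250.4 in shLuc replicate 1. It was also low, at 100.7, in the library labelled shLuc replicate 2, and limma did not call it in shPebp1. Etnk2 had 15 reads in shEtnk1/2 against 21 and 45 in shLuc, too few to test. Each member is therefore set beside both shLuc libraries, and every treated group had 1 library and no replicate check.

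The promoters of Tnmd, Spp1, Lrrc15 and Lrrc17 are shown because these genes were high together in the libraries of pathway inhibition. Each runs 5′ to 3′ from 250 bases before to 50 bases after the annotated start, from RefSeq on build GRCm38.p6, the sequence of mm10. Capitals mark motifs searched on both strands. They are the E-box CANNTG, which basic helix-loop-helix factors such as scleraxis bind, TGTGGT, a form of the core of RUNX factors, and the TATA motif TATAAA. Other forms of the RUNX core were not searched. RefSeq promoters were found for 5 of the 9 genes, and of 2 for Spp1 the one at the start in the deposited table is shown.
Tnmd (chrX:133850758-133851057, plus strand): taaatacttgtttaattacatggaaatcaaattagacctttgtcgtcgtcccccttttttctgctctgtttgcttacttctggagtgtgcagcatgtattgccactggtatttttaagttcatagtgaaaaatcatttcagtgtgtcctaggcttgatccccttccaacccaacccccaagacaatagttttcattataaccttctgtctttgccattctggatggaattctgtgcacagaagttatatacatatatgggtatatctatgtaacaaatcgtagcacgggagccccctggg
Spp1 (chr5:104434861-104435160, plus strand): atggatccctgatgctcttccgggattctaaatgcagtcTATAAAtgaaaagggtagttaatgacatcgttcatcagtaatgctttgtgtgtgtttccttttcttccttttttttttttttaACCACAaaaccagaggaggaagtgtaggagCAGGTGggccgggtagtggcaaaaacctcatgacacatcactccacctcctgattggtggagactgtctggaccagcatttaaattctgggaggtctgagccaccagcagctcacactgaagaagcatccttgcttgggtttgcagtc
Lrrc15 (chr16:30283205-30283504, minus strand): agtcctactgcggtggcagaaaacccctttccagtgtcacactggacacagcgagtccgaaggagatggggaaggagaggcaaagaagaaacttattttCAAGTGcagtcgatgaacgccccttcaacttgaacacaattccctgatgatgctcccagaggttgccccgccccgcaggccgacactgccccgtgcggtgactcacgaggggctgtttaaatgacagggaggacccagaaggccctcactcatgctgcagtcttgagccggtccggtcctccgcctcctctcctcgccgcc
Lrrc17 (chr5:21543277-21543576, plus strand): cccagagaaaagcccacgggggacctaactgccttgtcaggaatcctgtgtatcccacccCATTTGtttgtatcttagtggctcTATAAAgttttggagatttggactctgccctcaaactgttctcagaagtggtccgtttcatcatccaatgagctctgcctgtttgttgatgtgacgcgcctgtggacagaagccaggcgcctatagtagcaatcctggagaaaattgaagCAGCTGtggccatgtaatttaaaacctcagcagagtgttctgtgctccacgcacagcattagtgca

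No motif was in all 4 windows. Tnmd held none of the 3, Lrrc15 held 1 E-box, Lrrc17 held 2 E-boxes and 1 TATA motif, and Spp1 held 1 of each. The TATA motif lay at -166 from the annotated start in Lrrc17 and at -211 in Spp1, so neither was close to the start. Among all 32851 promoters of this length, 72.3% held an E-box, 16.8% TGTGGT and 13.6% the TATA motif. A lack of a match says only that these letters are not in this window.

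Over all genes tested, limma takes its spread from the shLuc pair alone and calls a gene at a Benjamini-Hochberg adjusted p under 0.05. It called 3.46% of genes in shEtnk1/2 (1.09% higher, 2.37% lower), 3.8% in Etn-deprived (0.586% higher, 3.22% lower) and 0.109% in shPcyt2 (0.0503% higher, 0.0586% lower). For the members, whose choice rests on these libraries, the position relative to the shLuc libraries is given instead, and nothing is read from the counts. Against both shLuc libraries, 9 of 9 members were higher in shEtnk1/2 (25.0% of all genes, with 51.9% lower), 8 of 9 in shPcyt2 (29.0%, with 39.4% lower) and 8 of 9 in Etn-deprived (36.0%). For 7 of 9, all 3 of these libraries lay above both shLuc libraries (7.82%), and the exceptions were Scx and Osr2. All the comparisons with shLuc share the same control libraries.

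**Figure D1:**
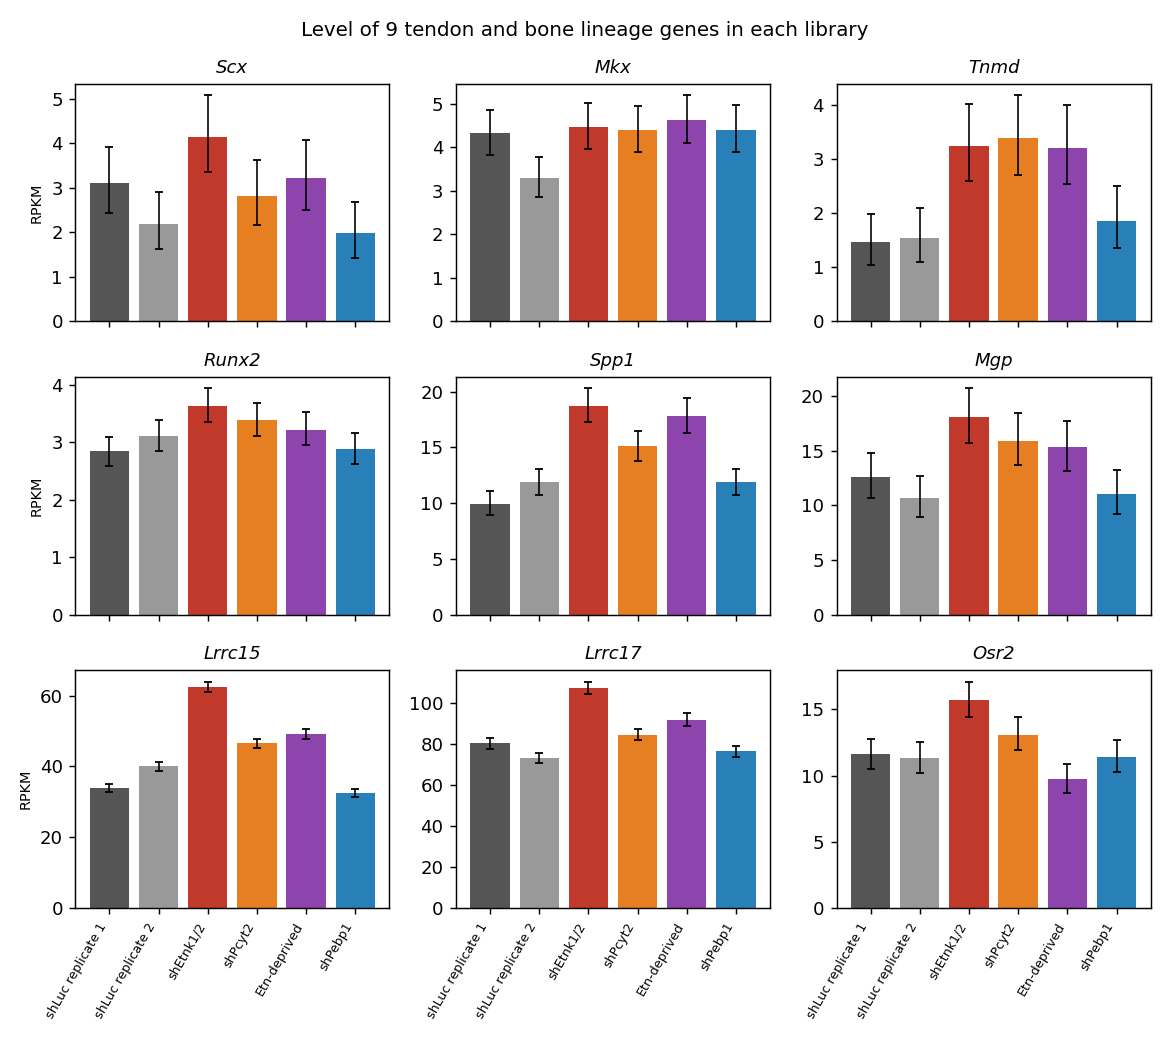
Level of each of the 9 genes in RPKM (y axis, linear and starting at 0) in the 6 libraries (x axis). Bars are single libraries and error bars are 95% Poisson intervals from the reads behind each value, which cover counting error only. The libraries of shEtnk1/2, shPcyt2 and Etn-deprived stand above both shLuc libraries for 7 genes, most clearly for Tnmd at 3.20 to 3.39 against 1.46 and 1.53 RPKM.

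Levels per length differed widely among the 9 genes. From the shLuc mean, the order was Lrrc17 (76.7 RPKM), Lrrc15 (37.0), Mgp (11.6), Osr2 (11.4), Spp1 (10.9), Mkx (3.80), Runx2 (2.97), Scx (2.65) and Tnmd (1.5). Lrrc17 stood at percentile 96.1 of all 18301 genes by its mean over 6 libraries and Tnmd at percentile 42.2. Mgp, Osr2 and Spp1, whose shLuc values spanned 10.7 to 12.6, 11.3 to 11.6 and 9.93 to 11.9 RPKM, could not be ordered beyond that spread, nor could Runx2 and Scx. In bulk RNA a level set by the number of cells that express a gene and one set by RNA per cell cannot be told apart.

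Scx encodes scleraxis, a basic helix-loop-helix transcription factor that marks tendon progenitors (mm10 chromosome 15, 76457438 to 76459468, plus strand). It had 4.14 RPKM in shEtnk1/2, 2.82 in shPcyt2, 3.22 in Etn-deprived and 1.99 in shPebp1, against 3.10 in shLuc replicate 1 and 2.19 in the library labelled shLuc replicate 2. Only shEtnk1/2 lay well above both, at 1.34 and 1.89 times their values, and the shPcyt2 library lay between them. The gap between the shLuc libraries was wider for Scx than for 95.5% of genes tested, on 42 to 93 reads per library, and the counting interval of shEtnk1/2 (3.34 to 5.08) overlapped that of shLuc replicate 1 (2.42 to 3.91). Scx lies within Bop1, a ribosome biogenesis gene on the opposite strand. Their exons share 0 bases in GENCODE M21, and Bop1 was at 22.6 to 26.4 RPKM with its lowest value in shEtnk1/2.

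Mkx encodes mohawk, a homeobox factor needed for tendon collagen (chromosome 18, 6934966 to 7004779, minus strand). Its values were 4.46 RPKM in shEtnk1/2, 4.39 in shPcyt2, 4.62 in Etn-deprived, 4.40 in shPebp1 and 4.32 in shLuc replicate 1. The library labelled shLuc replicate 2 alone stood apart, at 3.29 RPKM (95% interval 2.85 to 3.77). Against shLuc replicate 1 the log2 differences of the 4 treated libraries were 0.02 to 0.08, on the log2(RPKM + 1) scale used throughout, which understates the change of genes with low values. Mkx thus counts among the 7 genes above only by a narrow margin over shLuc replicate 1.

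Tnmd encodes tenomodulin, a membrane glycoprotein of mature tendon cells and a known target of scleraxis in mouse (chromosome X, 133851008 to 133865578, plus strand). It was at 3.24 RPKM in shEtnk1/2 (95% interval 2.59 to 4.01), 3.39 in shPcyt2 (2.71 to 4.18) and 3.20 in Etn-deprived (2.54 to 3.99). The shLuc libraries had 1.46 (1.04 to 1.99) and 1.53 (1.10 to 2.09), and shPebp1 had 1.86 (1.36 to 2.49). The 3 libraries lay together at 2.14 to 2.26 times the shLuc mean, with counting intervals that did not overlap those of either shLuc library. The reads were few, 79 to 87 in these libraries and 39 and 40 in shLuc. Tnmd was the member with the widest difference in shPcyt2, at 0.81 on the log2 scale, where the other 8 were between 0.08 and 0.44. Scx was at 0.08 in that library, on 62 reads and between its values in the shLuc libraries. Whether Tnmd follows Scx here was not tested.

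Runx2 encodes the transcription factor known to start osteoblast differentiation, with RNA listed on chromosome 17 from 44495987 to 44736648 on the minus strand. It was at 3.64 RPKM in shEtnk1/2, 3.39 in shPcyt2, 3.22 in Etn-deprived and 2.89 in shPebp1, against 2.84 in shLuc replicate 1 and 3.11 in the library labelled shLuc replicate 2. Its differences were the narrowest of the bone genes, 0.09 to 0.22 in the 3 libraries of pathway inhibition, and its counting intervals overlapped between Etn-deprived (2.95 to 3.52) and both shLuc libraries (2.59 to 3.10 and 2.85 to 3.39).

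Spp1 encodes osteopontin, a secreted phosphoprotein of bone that binds integrins and CD44 (chromosome 5, 104435111 to 104441053, plus strand). It was at 18.7 RPKM in shEtnk1/2, 15.1 in shPcyt2 and 17.8 in Etn-deprived, against 9.93 and 11.9 in shLuc and 11.9 in shPebp1. All 3 libraries lay above both shLuc libraries, at 1.72, 1.39 and 1.63 times their mean. The shPebp1 value fell together with that of the library labelled shLuc replicate 2 (0.999 times). Mgp encodes matrix Gla protein, an inhibitor of calcification that needs vitamin K (chromosome 6, 136872435 to 136875805, minus strand). It was at 18.1, 15.9 and 15.3 RPKM in the same 3 libraries, against 12.6 and 10.7 in shLuc and 11 in shPebp1. The values of the 3 libraries lay above both shLuc libraries, at 1.55, 1.37 and 1.31 times the mean. On 123 to 214 reads per library, the counting intervals of shPcyt2 (13.7 to 18.4) and Etn-deprived (13.1 to 17.7) overlapped that of shLuc replicate 1 (10.7 to 14.8).

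Lrrc15 encodes a membrane protein of activated fibroblasts that TGF-beta is known to induce (chromosome 16, 30269302 to 30283254, minus strand). It rests on 3214 to 6551 reads per library. It was at 62.5 RPKM in shEtnk1/2 (95% interval 61.0 to 64.0), 49.2 in Etn-deprived (47.9 to 50.7) and 46.5 in shPcyt2 (45.2 to 47.8). The shLuc libraries had 33.9 and 40.0 RPKM, and shPebp1 had 32.5, below both. The shEtnk1/2 value was 1.69 times the shLuc mean, and those of Etn-deprived and shPcyt2 were 1.33 and 1.26 times.

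Lrrc17 encodes a secreted protein known in mouse to restrain the formation of osteoclasts. The table places it on chromosome 5 from 21543527 to 21543719, a span of 193 bases, whereas its values fit a transcript of about 2204 nt and RefSeq places the gene from 21543527 to 21575911. It was the most highly expressed of the 9 genes, at 107.1 RPKM in shEtnk1/2, 91.8 in Etn-deprived and 84.3 in shPcyt2, against 80.2 and 73.1 in shLuc and 76.3 in shPebp1. Only shEtnk1/2 and Etn-deprived were clear of both shLuc libraries by more than counting error. In shPcyt2 the interval of 81.6 to 87.2 overlapped that of shLuc replicate 1 (77.6 to 82.9). Its exons share 161 bases with Fbxl13 on the opposite strand, a gene at 0.115 to 0.321 RPKM in every library. Other members share exon bases as well. Spp1 shares 309 of 1648 with Gm42793 and Mkx 201 of 4095 with AC148004.2, both on the same strand. Runx2 shares 519 of 8837 with Runx2os1 on the opposite strand. Gm42793, AC148004.2 and Runx2os1 had no values in the deposited data.

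Osr2 encodes a zinc finger factor of palate and joint development (chromosome 15, 35296112 to 35303305, plus strand). It was at 15.7 RPKM in shEtnk1/2 (95% interval 14.4 to 17.1), 13.1 in shPcyt2, 9.75 in Etn-deprived (8.69 to 10.9) and 11.4 in shPebp1, against 11.6 and 11.3 in shLuc. It was above both shLuc libraries in shEtnk1/2 and shPcyt2 and below both in Etn-deprived, where 41.9% of all genes were below both. The differences of 0.43 in shEtnk1/2 and -0.21 in Etn-deprived lay on either side of shLuc, and no other member was below both shLuc libraries in a library of pathway inhibition.

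**Figure D2:**
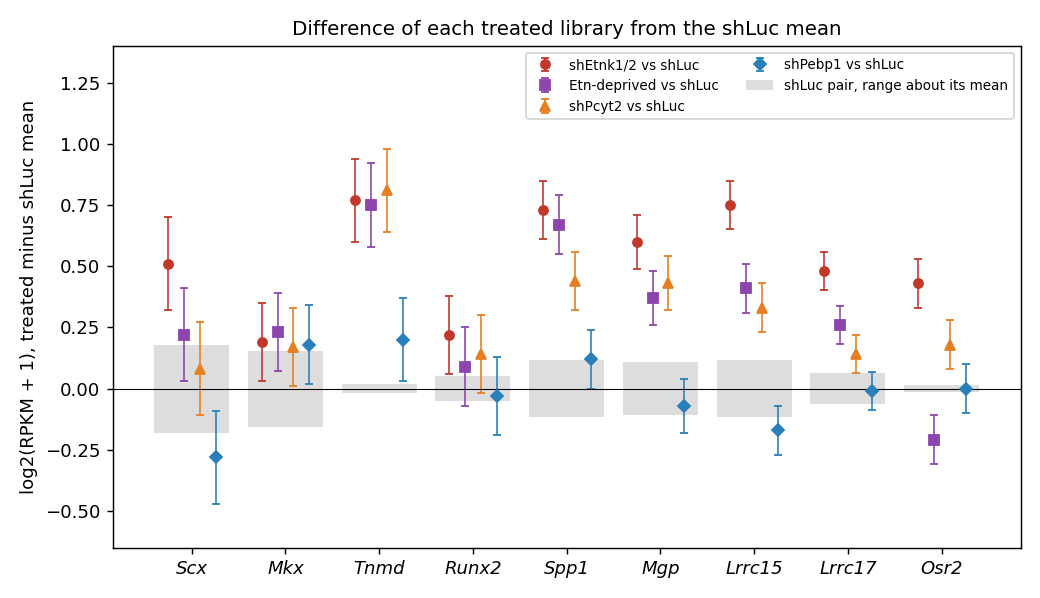
Difference of each treated library from the shLuc mean on the log2(RPKM + 1) scale (y axis) for the 9 genes (x axis). Error bars are standard errors from limma, which rest on the shLuc pair, and grey bars give the range of the shLuc pair about its mean. Tnmd stands at 0.75 to 0.81 in the 3 libraries of pathway inhibition, Osr2 at -0.21 in Etn-deprived, and the shPebp1 points lie between -0.28 and 0.20.

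The 9 genes differed in how even the libraries of pathway inhibition were. Tnmd was about as high in all 3 (0.77, 0.81 and 0.75 in shEtnk1/2, shPcyt2 and Etn-deprived). Lrrc15 (0.75, 0.33 and 0.41), Lrrc17 (0.48, 0.14 and 0.26), Scx (0.51, 0.08 and 0.22) and Mgp (0.60, 0.43 and 0.37) had their highest values in shEtnk1/2. Osr2 (0.43, 0.18 and -0.21) did too, with its lowest value in Etn-deprived. Spp1 (0.73, 0.44 and 0.67) was about as high in Etn-deprived as in shEtnk1/2, with counting intervals of 16.3 to 19.4 and 17.3 to 20.3 RPKM. Runx2 (0.22, 0.14 and 0.09) varied among the 3 by less than its SE of 0.16. Mkx (0.19, 0.17 and 0.23) was nearly even. The median of the 9 genes was 0.51 in shEtnk1/2, 0.18 in shPcyt2 and 0.26 in Etn-deprived, beside -0.06, -0.02 and -0.01 over all genes tested. These differences between the treated libraries were not tested.

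The shPebp1 library was not used to choose the genes, and here the members were tested, with the shLuc libraries shared with the other comparisons. None of the 9 genes passed limma's test (Benjamini-Hochberg adjusted p between 0.913 and 0.998), where 12 of 11939 genes did (0.101%), 0.00838% as higher and 0.0921% as lower. No member had an unadjusted p under 0.05 with limma, and with limma-voom 1 did and 0 were called. Their median log2 difference was -0.01, beside 0.01 over all genes tested. Tnmd was at 0.20 (SE 0.17), Spp1 at 0.12 (SE 0.12), Mgp at -0.07 (SE 0.11), Lrrc17 at -0.01 (SE 0.077) and Lrrc15 at -0.17 (SE 0.10). Against both shLuc libraries 2 of 9 were higher (36.6% of all genes) and 2 of 9 lower (31.7%). These were Tnmd and Mkx above, and Scx and Lrrc15 below. Pebp1 was low in the library labelled shLuc replicate 2 as well, and did not itself pass this test. The lack of calls among the members thus cannot show that they were unchanged by the knockdown. The values against shLuc replicate 1 alone also bear on this comparison. They were 0.22 for Tnmd, 0.23 for Spp1, -0.06 for Lrrc15, -0.07 for Lrrc17 and -0.46 for Scx.

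The other genes of the tendon and skeletal lineages were taken from 9 lists, with 82 of their genes tested. The lists were chosen with earlier results of these data known. Their genes are read in the same libraries that chose the members, so their calls are no independent support for the members. In shEtnk1/2, 12 of the 14 tendon matrix genes tested were called higher by limma and 0 lower, where 1.09% of all genes tested were called higher and 2.37% lower. Their median log2 difference was 0.43, beside -0.06 over all genes tested. The cornea and tendon proteoglycan gene Kera stood at 26.8 RPKM against 15.8 and 14 in shLuc, and rose by 0.81 (SE 0.10, limma adjusted p = 0.00401, with 2.9e-09 to 0.534 over its alternatives). Bgn, which encodes the proteoglycan biglycan, rose by 0.66 (SE 0.073, adjusted p = 0.00376). Col1a1, the main collagen of tendon and bone, rose by 0.57 (SE 0.061, adjusted p = 0.00291), and Col12a1, a fibril-associated collagen, by 0.57 (SE 0.064, adjusted p = 0.00292). Fmod (fibromodulin) was at 0.54 (SE 0.18) and Col14a1 at 0.39 (SE 0.13), and both missed the threshold with limma, whereas limma-voom called both and thus 14 of 14. Thbs4, Comp, Cilp and Prg4, which mark differentiated tendon, cartilage and joint lining, lay below the level required for testing. Prg4 had 10 and 14 reads in shLuc, 43 in shEtnk1/2, 32 in shPcyt2, 34 in Etn-deprived and 5 in shPebp1. Thbs4 had 59 and 36, 59, 41, 29 and 14 reads in the same order. Comp had 1 to 10 reads per library and Cilp 0 to 14.

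In Etn-deprived, 1 of the 14 tendon matrix genes rose, Col12a1 (0.33, SE 0.064, limma adjusted p = 0.0219, with 1.02e-05 to 0.822 over its alternatives), and the median was 0.11. In shPcyt2, 0 of 14 were called and the median was 0.09. In shPebp1, 0 of 14 were called, 1 lay above the shLuc mean and the median was -0.10. Over all 82 listed genes limma called 16 higher and 2 lower in shEtnk1/2 (1.09% and 2.37% of all genes tested). It called 1 and 1 in Etn-deprived (0.586% and 3.22%), and none in shPcyt2 or shPebp1. With limma-voom these were 23 and 2 in shEtnk1/2 and 8 and 2 in Etn-deprived. In the last 2 libraries 7 genes each had an unadjusted p under 0.05, and limma-voom called 1 each, Mmp13 as higher in shPcyt2 and Col1a1 as lower in shPebp1. Without the library labelled shLuc replicate 2, where the spread came from other pathway libraries, 0 of the 14 tendon matrix genes were called in shEtnk1/2 and their median was 0.38. Without shLuc replicate 1 it was 0.46, again with 0 called. The other calls among listed genes in shEtnk1/2 were lost without either of these libraries too.

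**Figure D3:**
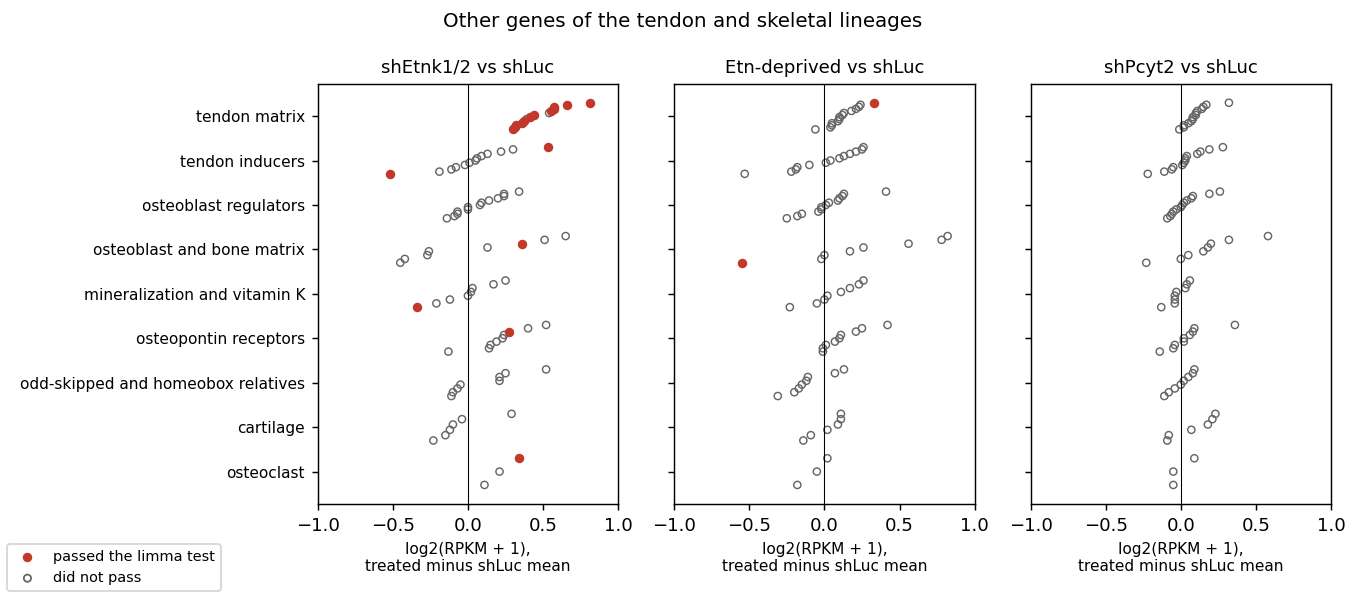
Log2(RPKM + 1) difference from the shLuc mean (x axis) for the tested genes of 9 lists (y axis, 1 point per gene) in 3 treated libraries. Filled points passed limma's test at an adjusted p under 0.05 and open points did not. The tendon matrix genes in shEtnk1/2 are filled in 12 of 14 cases and stand at a median of 0.43, while no gene of the osteoblast regulators is filled.

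Signals and factors that act upstream in tendon did not move as 1 group. Of 13 tested in shEtnk1/2, Tgfb3, a growth factor known to induce scleraxis, was at 59.4 RPKM against 40.4 and 41.3 in shLuc, and rose by 0.53 (SE 0.076, limma adjusted p = 0.00754, with 9.11e-09 to 0.912 over its alternatives). Etv5, a transcription factor downstream of FGF signals, fell by 0.52 on the log2 scale (SE 0.094, adjusted p = 0.0197), and not once the length trend was removed. The list median was 0.05. In the other 3 treated libraries limma called 0 of 13, with Etv4 at -0.53 (SE 0.13, adjusted p = 0.0563) in Etn-deprived and Six2 at -0.52 (SE 0.20, adjusted p = 0.784) in shPebp1. With a filter of 5 RPKM, 1 of 10 was called lower in Etn-deprived. Limma-voom called 2 higher and 1 lower in shEtnk1/2. Gdf6, Gdf7, Fgf4, Fgf8, Mstn, Egr2 and Gdf5 lay below the level required for testing. Gdf5 had 5 and 15 reads in shLuc, 26 in shEtnk1/2, 29 in shPcyt2, 31 in Etn-deprived and 15 in shPebp1. In the same order Gdf7 had 1 and 9, 9, 12, 16 and 3 reads. Gdf6 had 45 and 37, 54, 54, 35 and 39, and Egr2 17 and 20, 25, 20, 10 and 24. Fgf4, Fgf8 and Mstn had at most 3.

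Limma called none of the osteoblast regulators in any comparison with shLuc, limma-voom called Atf4 lower in Etn-deprived, and a filter of 5 RPKM gave 1 gene called higher in shEtnk1/2. Of the 17 found in the deposited data 13 were tested, with medians of 0.08 in shEtnk1/2 and 0.01 in both shPcyt2 and Etn-deprived. Twist2, a factor that restrains osteoblast differentiation, was at 0.34 (SE 0.092, limma adjusted p = 0.0784) in shEtnk1/2, and Msx1 at 0.41 (SE 0.16, adjusted p = 0.189) in Etn-deprived. Sp7, the factor that acts after Runx2, had 1 and 1 reads in shLuc, 11 in shEtnk1/2, 2 in shPcyt2, 7 in Etn-deprived and 6 in shPebp1. The osteocalcin gene Bglap had 1 to 4 reads in every library, and the osteocyte genes Dmp1 and Sost had 0 to 4 and 0 or 1. Sp7, Bglap, Dmp1 and Sost were thus at or near 0. Other osteoblast genes were detected, with Ibsp (bone sialoprotein) at 0.906 to 2.19 RPKM on 35 to 83 reads, Ifitm5 at 0.642 to 1.89 RPKM on 9 to 25 reads and Alpl at 7.39 to 11.4 RPKM.

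Bone matrix genes were mixed. Of 8 tested, Sparc (osteonectin) rose in shEtnk1/2 (0.36, SE 0.056, limma adjusted p = 0.0109). Alpl, the alkaline phosphatase of mineralization, had 11.2 and 11.4 RPKM in shLuc and 7.39 in Etn-deprived, where it fell (log2 difference -0.55, SE 0.11, limma adjusted p = 0.0205, with 0.00419 to 0.423 over its alternatives), and missed the threshold with the length trend removed. Mmp13, a collagenase gene and known Runx2 target, was at 18.3, 17.4 and 20.1 RPKM in shEtnk1/2, shPcyt2 and Etn-deprived. The shLuc libraries had 8.57 and 14.7, and 0.65, 0.58 and 0.78 on the log2 scale (SE 0.50) did not pass with limma. Limma-voom called Mmp13 in all 3 libraries. Omd, the osteomodulin gene, was at 0.82 in Etn-deprived (SE 0.20, limma adjusted p = 0.0518) on 30 to 84 reads per library. Limma-voom called Omd there.

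Of 9 osteopontin receptor genes, Itgb1 (integrin beta 1) rose in shEtnk1/2 by 0.27 (SE 0.061, limma adjusted p = 0.0453), and limma did not call the 8 others, with Itga8 at 0.52 (SE 0.17). Limma-voom also called Itga8 and Itga4 in shEtnk1/2, and Itga8 and Itgb1 in Etn-deprived. Of 8 genes of mineralization and the vitamin K cycle, Nt5e, an ectonucleotidase, fell in shEtnk1/2 by 0.34 on the log2 scale (SE 0.076, adjusted p = 0.0417), and not under a median ratio scaling. Ggcx, the carboxylase that activates matrix Gla protein, was at 0.17, and Vkorc1, which recycles vitamin K, at 0.25 (SE 0.081) in the same library. Cartilage genes (6 tested) and the relatives of Osr2 and Mkx (8 tested) had 0 limma calls in any comparison with shLuc. Irx3 was at 0.52 in shEtnk1/2 (SE 0.15, limma adjusted p = 0.0949), where limma-voom called it. Of 3 tested osteoclast genes, Ctsk (cathepsin K, also made by fibroblasts) rose in shEtnk1/2 by 0.34 (SE 0.069, adjusted p = 0.0286), and the calcitonin receptor gene Calcr had 0 reads in 5 of 6 libraries and 1 read in the other.

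Genes annotated to ossification in the deposited table, a list chosen after the values were seen, included Spp1, Mgp and Lrrc17. Of its 46 other tested genes limma called 3 higher (Col11a1, Col5a2 and Sparc) and 0 lower in shEtnk1/2, with a median of 0.01, and 0 in shPcyt2 (median -0.03) and shPebp1 (median -0.01). In Etn-deprived 1 was called higher (Sp3) and 2 lower (Nppc and Rpl38), with a median of -0.04. Osteoblast differentiation, which includes Runx2, had 79 other tested genes. Of these, 5 were called higher and 1 lower in shEtnk1/2 (1.09% and 2.37% of all genes), and 0 and 6 in Etn-deprived (0.586% and 3.22%). Of 26 genes of bone mineralization, 2 were called higher in shEtnk1/2, 1 higher in Etn-deprived and 0 lower. Tendon cell differentiation had 1 other tested gene, which was not called.

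Markers of other cells were read beside these results, since Spp1 is also made by macrophages. Of 12 macrophage genes found, 6 were tested, and Lyz2 was called in shEtnk1/2 (0.34, SE 0.079, limma adjusted p = 0.0478). The summed level of the 12 was 69.5 RPKM in shEtnk1/2, 55.2 in shPcyt2, 57.0 in Etn-deprived and 51.8 in shPebp1, against 54.6 and 58.8 in shLuc, and most of it was Lyz2. The macrophage genes differed in level, with Csf1r at 0.603 to 1.11 and Ptprc at 0.0456 to 0.193 RPKM over the libraries. Cd68 was at 4.34 to 6.32 RPKM and Lyz2 at 38.4 to 52.5 RPKM. In shEtnk1/2, 4 of the 12 (Lyz2, Cd68, Fcer1g and C1qb) lay above both shLuc libraries and 2 below both, and the rest, Csf1r and Ptprc among them, lay between. Fcer1g was at 2.46 RPKM against 1.21 and 1.70. The part of macrophages in the Spp1 values was not tested. The fibroblast list summed to 12819.1 RPKM in shEtnk1/2 and to between 9445.4 and 10864.5 in the other 5 libraries, with Col1a1, Col1a2, Col3a1 and Pdgfra called higher in shEtnk1/2. Col1a1, Col1a2 and Col3a1 stand in the tendon matrix list too. Of the 8 endothelial genes only Tek reached the level required for testing, at 20.7 to 24.6 RPKM. Myog (muscle) and Adipoq (fat) had 0 or 1 read in every library. Other genes of these lists were detected, with Acta1 (muscle) at 0.758 to 3.45 RPKM and Lpl (fat) at 4.72 to 6.15 RPKM. No endothelial, muscle or fat gene was called by limma in any comparison with shLuc, with 1, 3 and 2 genes tested, and limma-voom called 1 muscle gene in shEtnk1/2 and 1 fat gene in shPcyt2.

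To find which genes were most like the 4 that drove the choice, profiles of log2(RPKM + 1) over the 6 libraries were centred on their own means and compared by Euclidean distance. Nearest to Tnmd, whose own profile had a length of 0.888, were Alox5ap (distance 0.245), Cntfr (0.299) and Rem1 (0.369). Alox5ap, which encodes the activating protein of 5-lipoxygenase, was at 3.38, 2.78 and 3.21 RPKM in shEtnk1/2, shPcyt2 and Etn-deprived against 1.34 and 1.55 in shLuc. Nearest to Spp1 (length 0.760) were Slc16a4 (0.177), the matrix metalloproteinase gene Mmp10 (0.201) and Cntfr (0.204), the receptor gene for ciliary neurotrophic factor. Nearest to Lrrc15 (length 0.777) were the matrix genes Postn (0.193) and Cthrc1 (0.207) and the growth factor gene Igf2 (0.209). Nearest to Lrrc17 (length 0.445) were Thbs2 (0.067), from the tendon matrix list, Sh3d19 (0.0817) and Cav2 (0.092). Tnmd and Spp1 thus had low expressed genes for neighbours, with means of 1.05 to 3.37 RPKM. Lrrc15 had the abundant matrix genes Postn and Cthrc1 among its neighbours. Lrrc17 had Thbs2, at a mean of 151.8 RPKM, beside Sh3d19 at 12.5 and Cav2 at 8.44. These distances come from 6 libraries and were not tested. Among the 9 genes themselves the closest pair was Mgp and Lrrc17 (0.287) and the farthest Tnmd and Osr2 (0.852).

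**Figure D4:**
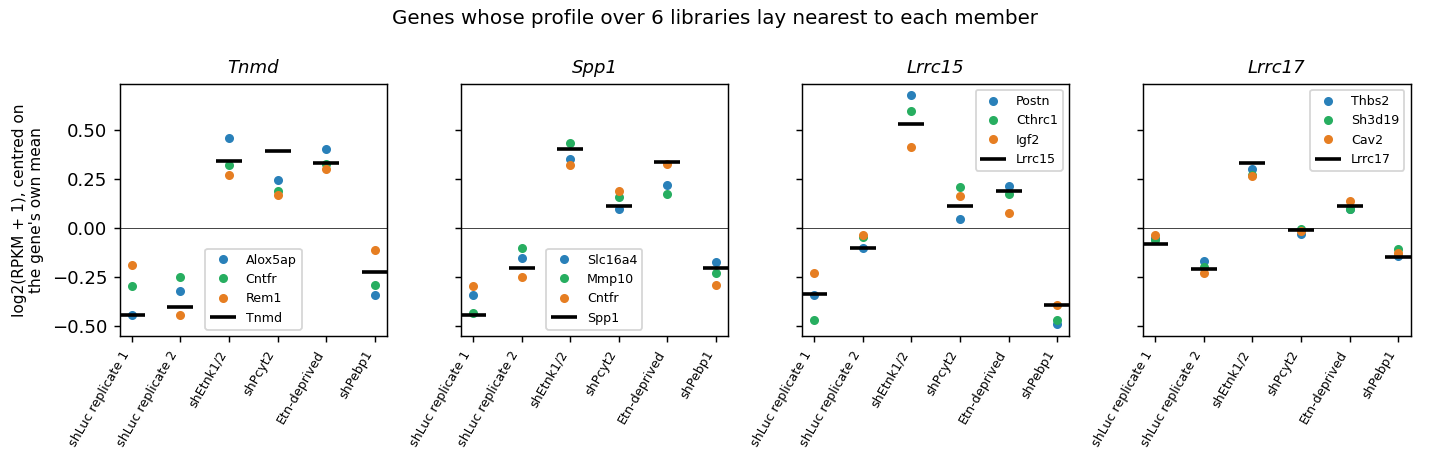
Centred log2(RPKM + 1) values (y axis) in the 6 libraries (x axis) of Tnmd, Spp1, Lrrc15 and Lrrc17 (black bars) and of the 3 genes nearest to each (points). Each panel is 1 gene with its neighbours, and values are differences from the gene's own mean. The neighbours of Lrrc17 lie within a distance of 0.092, those of Tnmd within 0.369.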

How the data were processed

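Polyadenylated RNA of 6 libraries was read as paired ends, per the labels' protocols. The authors deposited 1 table of RPKM values with 18303 rows, 1 column per library. Per the submitters' processing notes, Bowtie 0.12.2 and mm10 were used. No source used here gives the counting program, gene models, strand setting or filters. Whole reads behind the RPKM were recovered for every gene from the ratios between libraries (within 1e-05 reads plus a relative 5e-09) and gave read totals, 95% Poisson intervals and transcript lengths. Intervals cover counting error only. Whether these are reads or pairs is unknown. The table has 18301 distinct symbols, and for the 2 repeated ones the row of higher mean was kept.

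Values were analysed as log2(RPKM + 1), for genes averaging 1 RPKM or more, with limma 3.58.1 (R 4.3.3), with trended and robust empirical Bayes and Benjamini-Hochberg adjustment at 0.05, in a model of 5 group means (residual degrees of freedom 1, prior 9.24). Pathway inhibition (3 libraries) was also compared with shLuc (2 libraries) as 1 group. The fit was tested on simulated data. Members, lists and tests were chosen with earlier results of these data known. Named genes were the members, listed genes that limma called or that were among the 4 largest differences of their list, and the 3 genes nearest to Tnmd, Spp1, Lrrc15 and Lrrc17. Genes below the level for testing were named for their known roles. Some listed genes, among them Fmod, Col14a1, Ggcx, Ibsp, Ifitm5, Atf4 and Cd68, lie outside this rule and were named after their values were seen. The alternatives were a pseudocount of 0.1, no filter, a filter of 5 RPKM, median ratio scaling, limma-voom on recovered reads, removal of the trend with transcript length (loess), and each library left out. Symbols were matched by name, and RefSeq and GENCODE M21 gave promoters and overlaps.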

Additional observations from a re-analysis of the deposited data

Results flagged for a closer look

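Members that lay above both shLuc libraries in one treated library and below both in another are given here. Differences are on the log2(RPKM + 1) scale from the shLuc mean, and whether they differ between the treated libraries was not tested. Osr2 was at 0.43 in shEtnk1/2 and 0.18 in shPcyt2, above both shLuc libraries, and at -0.21 in Etn-deprived, below both. Lrrc15 was at 0.75 in shEtnk1/2, 0.33 in shPcyt2 and 0.41 in Etn-deprived, and at -0.17 in shPebp1. Scx was at 0.51 in shEtnk1/2 and 0.22 in Etn-deprived, and at -0.28 in shPebp1, where it had 42 reads.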

How the results depend on the processing

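No paired analysis was possible because only shLuc had more than 1 library and the groups compared share fewer than 2 replicate numbers. With 0 calls among the 9 members, shPebp1 gave 0 under all 8 alternatives. Over all genes, shEtnk1/2 went from 413 calls (130 higher, 283 lower) to 240 (138 and 102) with median ratio scaling, 788 with limma-voom, 181 with the length trend removed and 0 with no filter, and to between 3 and 5 without 1 shLuc library. Etn-deprived went from 454 calls (70 higher, 384 lower) to 261 with scaling, 700 with limma-voom (294 and 406), 97 with the length trend removed and 0 with no filter, and to between 15 and 20 without 1 shLuc library. For shPcyt2 the 13 calls became 37 with limma-voom, 5 with a filter of 5 RPKM, 0 with no filter, and between 0 and 3 without 1 shLuc library. The 12 calls of shPebp1 became 0 with no filter or without either shLuc library. Pathway inhibition as 1 group had 0 calls by limma, with 724 genes at an unadjusted p under 0.05, and 0 calls by limma-voom. By limma there was 1 call with a pseudocount of 0.1, and there were 5 with no filter and between 0 and 8 with 1 library left out, the 8 without shPcyt2.

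Of the 82 listed lineage genes, the 18 called in shEtnk1/2 became 0 with no filter or without either shLuc library, and were 15 to 25 otherwise. The 2 called in Etn-deprived became 10 with limma-voom, 4 with a filter of 5 RPKM, 1 with the length trend removed, 0 with no filter, and between 0 and 1 without 1 shLuc library. With limma-voom 1 was called in shPcyt2 and 1 in shPebp1. The cause of these changes was not tested, other than that leaving out a shLuc library takes the spread from other treated libraries. Tnmd moved from 0.77, 0.81 and 0.75 to 1.11, 1.17 and 1.09 with limma-voom, which has no pseudocount of 1 RPKM. Scx in shPcyt2 had its lowest value, -0.10, without the library labelled shLuc replicate 2, and Osr2 in pathway inhibition as 1 group went from 0.13 to -0.01 without shEtnk1/2. Tnmd and Scx rest on 39 to 93 reads per library, which limits their precision.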
